A study of Homo sapiens with 12 samples.

Results

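The collagen genes are the genes whose symbol consists of COL, a type number, the letter A and a chain number; antisense and pseudogene names were not taken. Of the 61806 genes in the deposited table, 44 matched. They were grouped by the structure of the protein into 11 fibrillar, 9 network-forming, 5 beaded-filament (type VI), 1 anchoring-fibril (type VII) and 10 FACIT genes (fibril-associated collagens with interrupted triple helices). The other groups held 4 transmembrane and 2 multiplexin genes (basement membrane collagens with many interruptions), and 2 genes, COL26A1 and COL28A1, were left unclassed.

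A collagen molecule is a triple helix of alpha chains, each encoded by its own gene, so that several types need chains of different genes in a fixed proportion. Fibrillar collagens build the cables of interstitial matrix, type IV builds the sheet of basement membranes, and type VI builds beaded microfilaments near the cell surface. In thyroid tissue, basement membrane surrounds the follicles, and fibrillar collagen in papillary carcinoma is largely laid down by stromal fibroblasts.

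RNA was profiled in K1 and TPC-1, established lines from human papillary thyroid cancer, 24 h after transfection with TRIM35 siRNA or a negative control siRNA. TRIM35 belongs to the tripartite motif proteins, many of which act as E3 ubiquitin ligases. The 4 groups were K1 with TRIM35 siRNA, K1 with control siRNA, TPC-1 with TRIM35 siRNA and TPC-1 with control siRNA, each of 3 libraries, all labelled wild type and 1 batch. Whether the libraries of a group came from separate cultures is not given in the sources used here, so p-values reflect the spread among these libraries alone, and that spread may be technical. Cultured lines hold neither stroma nor tissue architecture.

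Library totals ran from 16705044 to 22928861 counts. TRIM35 itself was close to control in both lines: 1.20, 1.49 and 1.53 FPKM in K1 siRNA libraries against 1.51, 1.85 and 1.47 FPKM in K1 control libraries, and 2.34, 2.56 and 2.58 FPKM in TPC-1 siRNA libraries against 2.86, 2.91 and 3.06 FPKM in TPC-1 control libraries. FPKM is the count scaled to the exonic length of the gene and to the summed counts of the library. The groups overlapped in K1 and did not in TPC-1; the exact two-sided permutation test on log2 CPM (n = 3 per group) gave p = 0.5 in K1 and p = 0.1 in TPC-1, the smallest this design can give. The edgeR adjusted p for TRIM35 was 1 in both lines, with log2 fold changes of -0.19 (SE 0.17) in K1 and -0.24 (SE 0.16) in TPC-1. Of 8 thyroid markers, 3 reached a mean of 1 FPKM in every group, and TG, TSHR, SLC5A5 and NKX2-1 lay under 1 FPKM in all 12 libraries. Of 6 epithelial markers, CDH1 and EPCAM lay under 1 FPKM in all 12 libraries. The keratin gene KRT18 had 24.7 to 41.9 FPKM over the K1 and 35.2 to 44.6 FPKM over the TPC-1 libraries, and KRT8 had 23.0 to 31.6 FPKM over the K1 and 1.72 to 2.08 FPKM over the TPC-1 libraries; the summed list ran from 50.3 to 77.6 FPKM in K1 and 38.2 to 47.7 FPKM in TPC-1. Of 8 fibroblast markers, 2 reached that mean in K1 (FAP and THY1; summed level of the list 9.85 to 11.4 FPKM) and 1 in TPC-1 (PDGFRB; 1.58 to 2.17 FPKM). DCN, LUM, PDGFRA, DPT and PI16 lay under 1 FPKM in every library. Single markers of other lists also differed in level between the lines. CD14, 1 of 5 leukocyte markers, had 3.71 to 5.31 FPKM over the K1 and at most 0.13 FPKM over the TPC-1 libraries, while PTPRC, CD3E and CD68 lay under 1 FPKM in all 12 (summed list 4.35 to 6.12 FPKM in K1 and 0.20 to 0.64 FPKM in TPC-1). KDR, 1 of 5 endothelial markers, had 1.35 to 1.9 FPKM over the K1 and at most 0.05 FPKM over the TPC-1 libraries, while PECAM1, CDH5, VWF and TEK lay under 1 FPKM in all 12 (1.47 to 2.04 FPKM in K1 and 0.19 to 0.38 FPKM in TPC-1). Of 5 smooth muscle and pericyte markers, ACTA2 had 5.17 to 6.31 FPKM over the K1 and 1.09 to 1.55 FPKM over the TPC-1 libraries, while MYH11, DES and CNN1 lay under 1 FPKM in all 12 (7.13 to 7.98 FPKM in K1 and 2.16 to 2.68 FPKM in TPC-1). The part of other cell types in the line differences below was not tested.

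Most collagen genes were low in both lines. At least 1 FPKM in at least 3 libraries was reached by 15 of the 44, beside 13630 of all 61806 genes. Of the 44, 15 reached a mean of at least 1 FPKM in some group, and 29 lay under 1 FPKM in all 12 libraries. Only 9 reached a mean of 5 FPKM: COL4A1, COL4A2, COL5A1, COL5A2, COL6A1, COL6A2, COL6A3, COL7A1 and COL16A1. The genes of type I and III collagen, the bulk of connective tissue, were among the low ones. COL1A1 lay between 0.22 and 0.49 FPKM in K1 siRNA, 0.18 and 0.34 FPKM in K1 control, 0.11 and 0.34 FPKM in TPC-1 siRNA and 0.10 and 0.24 FPKM in TPC-1 control libraries. COL1A2 did not pass 0.08 FPKM and COL3A1 did not pass 0.04 FPKM in any library. A filter on low counts left 28 of the 44 for testing, among the 17447 genes tested in all.

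**Figure D1:**
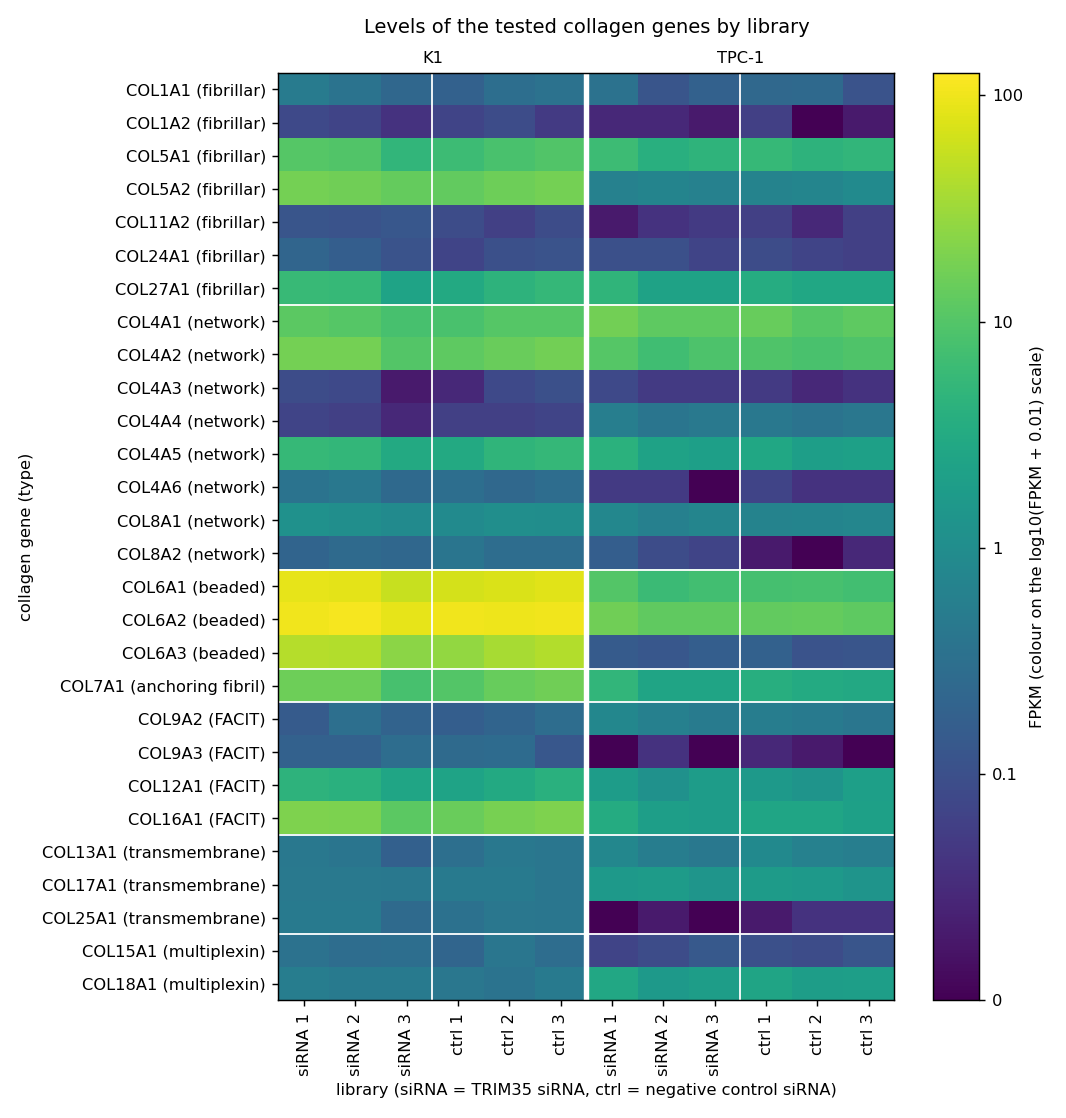
Level of the 28 tested collagen genes (rows, grouped by structural type) in each of the 12 libraries (columns, K1 left of TPC-1, TRIM35 siRNA left of control). Colour gives FPKM on a log10(FPKM + 0.01) scale; COL6A3 and COL5A2 change colour between the lines, while the columns of 1 line look alike.

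Collagen mRNA was several times more abundant in K1 than in TPC-1, and most of the excess was type VI. The summed level of the 44 genes was 350.2, 348 and 238 FPKM in K1 siRNA and 274, 309.7 and 338 FPKM in K1 control libraries, against 88.2, 58.9 and 62.6 FPKM in TPC-1 siRNA and 72.5, 63.5 and 64.6 FPKM in TPC-1 control libraries. Every K1 library lay above every TPC-1 library. Type VI genes made up 67.0% to 71.7% of the collagen FPKM of a K1 library and 29% to 33.8% of that of a TPC-1 library. Network genes made up 9.29% to 10.5% in K1 and 34.5% to 38.8% in TPC-1, and fibrillar genes 8.48% to 9.96% in K1 and 12.3% to 14.1% in TPC-1. In bulk RNA, fewer cells of a kind and less RNA per cell cannot be told apart.

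**Figure D2:**
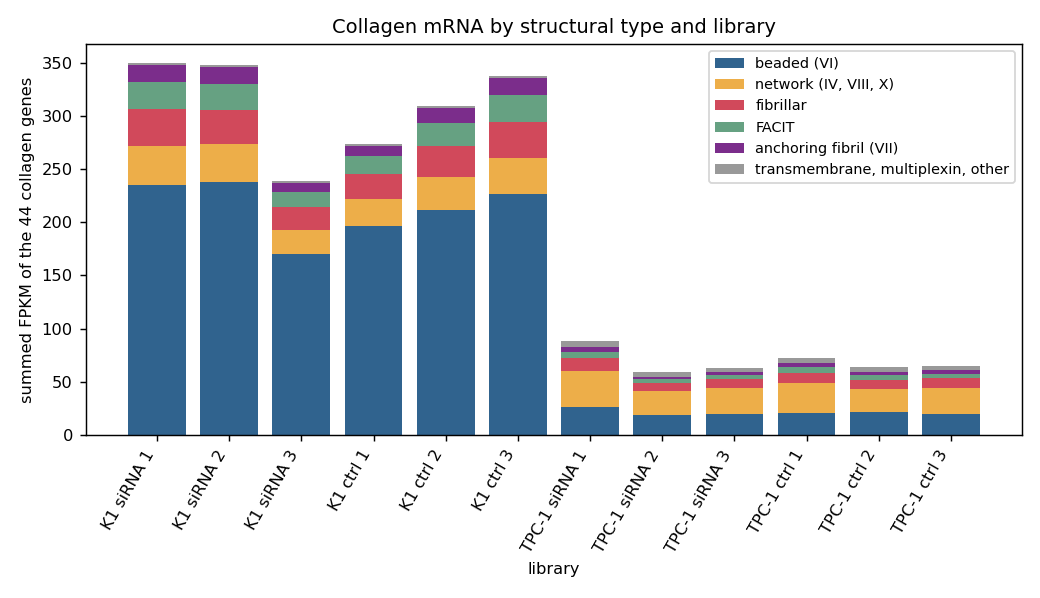
Summed FPKM of the 44 collagen genes in each library, stacked by structural type (bars from 0). K1 libraries total 238 to 350.2 FPKM with type VI as the largest block; TPC-1 libraries total 58.9 to 88.2 FPKM, with network and type VI blocks of similar height.

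Within a line, many collagen genes had their lowest or highest level in the same library. Libraries also deviated together over genes in general, with r = 0.837 between K1 siRNA library 3 and K1 control library 1. Whether collagen genes did so more than other genes was not tested. K1 siRNA library 3 held the lowest level of 10 of the 13 collagen genes with a mean of at least 1 FPKM in K1, and K1 control library 1 the lowest of the other 3. K1 siRNA library 1 held the highest of 9. The ratio of the highest to the lowest K1 library ran from 1.24 for COL6A2 to 2.37 for COL27A1. In TPC-1, siRNA library 1 held the highest level of 10 of 12 such genes. The share of counts from genes with at least 8000 exonic bases moved with the collagen level in K1: it was 38.6%, 37.4% and 32.1% in K1 siRNA and 32.3%, 34.6% and 37.7% in K1 control libraries, lowest in the same pair. In TPC-1 it was 29.6%, 29.1% and 32.8% in siRNA and 30.0%, 30.3% and 33.2% in control libraries, and TPC-1 siRNA library 1 did not stand out. The line comparisons were therefore also fitted with this share as a covariate, an alternative chosen after seeing the data. Where it ended a call, its value stands beside the gene. The share itself differed by line, with a mean of 35.4% over the K1 and 30.8% over the TPC-1 libraries. Its genes include FN1, the fibronectin gene, and long collagen genes such as COL5A1. The covariate can thus take up a difference between the lines, so a call that ended with it does not show that the lines are alike.

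The lines were compared in the TRIM35 siRNA libraries and again in the control libraries, which have no library in common. The comparisons are still not independent, as the fit over all 12 libraries gave both the same estimate of spread. Some siRNA libraries also deviated together with a control library of their line, such as TPC-1 siRNA library 3 with TPC-1 control library 3 (r = 0.848). The threshold for a call was 0.05 on the p of edgeR's quasi-likelihood test, adjusted by Benjamini-Hochberg over the 17447 genes. In the siRNA libraries, 17 of the 28 tested collagen genes were higher in K1, where 35.9% of all tested genes were called higher, and 6 were lower, where 32.4% were called lower. In the control libraries, 17 were higher (35.8% of all tested genes) and 6 lower (32.1%). The members called lower were the same 6, and 16 of the higher ones were shared; COL11A2 was called only in the siRNA libraries and COL1A2 only in the control libraries, and neither difference between the comparisons was called. The median log2 fold change of the 28 was 0.96 in siRNA and 0.82 in control libraries, against 0.06 over all tested genes in both. The count filter, the same for all genes, keeps a gene with enough counts in 1 group alone. Members such as COL9A3 (3 counts in each TPC-1 group) and COL25A1 (2 in TPC-1 siRNA and 9 in TPC-1 control) passed it on their K1 counts. Their direction was set by that, and the counts and medians here include them. K1 and TPC-1 libraries did not overlap for 22 of the 28 in either comparison (16 higher and 6 lower in siRNA, 17 higher and 5 lower in control libraries), beside 67.9% and 72.3% of all tested genes. COL6A3 ranked 222nd of 17447 genes from the top of the log2 fold changes in siRNA libraries and 240th in control libraries.

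**Figure D3:**
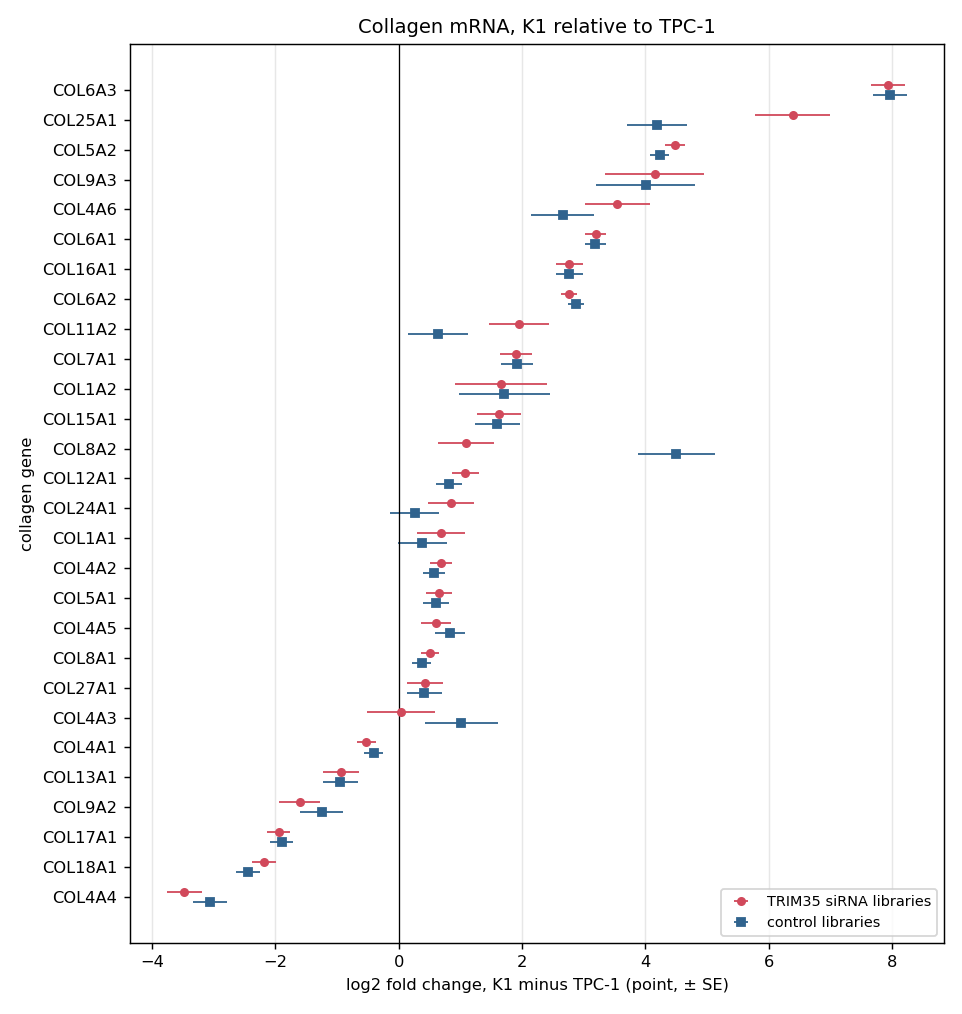
Log2 fold change, K1 minus TPC-1, of the 28 tested collagen genes in TRIM35 siRNA libraries (circles) and control libraries (squares), with SE bars, ordered by the siRNA value. COL6A3 lies near 8 in both; COL4A4 is the lowest; COL8A2 and COL25A1 lie apart between the comparisons.

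Type VI collagen is assembled from the products of COL6A1, COL6A2 and 1 further chain, usually that of COL6A3. COL6A3 had 43.5, 43.0 and 24.6 FPKM in K1 siRNA and 27.4, 36.6 and 42.1 FPKM in K1 control libraries, against 0.14, 0.12 and 0.16 FPKM in TPC-1 siRNA and 0.18, 0.10 and 0.11 FPKM in TPC-1 control libraries. The lines were far apart, and TPC-1 libraries held 40 to 76 counts each. The log2 fold change was 7.93 (SE 0.28, edgeR adjusted p = 1.01e-12) in siRNA and 7.97 (SE 0.28, edgeR adjusted p = 1.09e-12) in control libraries. COL6A1 had 87.5, 85.1 and 57.6 FPKM in K1 siRNA and 67.5, 74.7 and 82.5 FPKM in K1 control libraries, against 10.1, 6.20 and 7.22 FPKM in TPC-1 siRNA and 7.84, 7.96 and 7.25 FPKM in TPC-1 control libraries. It was higher in every K1 library, by 3.19 (SE 0.17) on the log2 scale in both comparisons. COL6A2 was the collagen gene with the highest level in K1: 104, 109.7 and 88.2 FPKM in siRNA and 101, 100.2 and 102 FPKM in control libraries, against 16.5, 12.7 and 12.7 FPKM in TPC-1 siRNA and 13.0, 13.4 and 12.2 FPKM in TPC-1 control libraries. Its log2 fold changes were 2.76 (SE 0.13) and 2.88 (SE 0.13), and K1 and TPC-1 did not overlap. COL6A1 and COL6A2 lie on the same strand of chromosome 21, with 93061 bases between them, whereas COL6A3 (hg38 chr2:237324003-237414328, minus strand) is on another chromosome. COL6A5 and COL6A6, which encode alternatives to the COL6A3 chain, had 1 and 19 counts over all 12 libraries and were not tested.

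The promoter of COL6A2 is shown because this gene had the highest collagen level in K1. The stretch is the part of the 250 bases before the RefSeq start (GRCh38.p14, chr21:46097862-46098096, plus strand) that lies in no exon of GENCODE 29; capitals mark matches on either strand, 4 to the GC box, written GGGCGG, and 1 to the TATA box, written TATAAA.
COL6A2: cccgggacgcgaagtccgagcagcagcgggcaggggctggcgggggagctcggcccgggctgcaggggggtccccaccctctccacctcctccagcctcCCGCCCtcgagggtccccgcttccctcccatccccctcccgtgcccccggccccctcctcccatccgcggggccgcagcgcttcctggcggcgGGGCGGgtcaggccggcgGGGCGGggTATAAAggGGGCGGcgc
Windows of RefSeq starts were found for 32 of the 44 genes, 44 windows in all. Over the 250 bases before the start, GGGCGG stood in 54.6% of these and in 42.6% of all 35116 windows, TATAAA in 18.2% and 10.7%, CCAAT in 27.3% and 32.0%, and TGANTCA (an AP-1 motif) in 2.27% and 6.57%. These are matches of letters on either strand and not evidence of binding.

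Fibrillar collagen mRNA was mostly type V in both lines, but in a different chain balance. Type V collagen regulates the diameter of collagen fibrils, and its common form joins chains of COL5A1 with a chain of COL5A2. COL5A2 had 17.7, 16.4 and 13.3 FPKM in K1 siRNA and 13.2, 15.4 and 17.6 FPKM in K1 control libraries, against 0.63, 0.71 and 0.63 FPKM in TPC-1 siRNA and 0.68, 0.72 and 0.89 FPKM in TPC-1 control libraries. The lines did not overlap; the log2 fold change was 4.48 (SE 0.16, edgeR adjusted p = 9.86e-13) in siRNA and 4.23 (SE 0.15, edgeR adjusted p = 1.73e-12) in control libraries. COL5A1 was closer between the lines: 10.5, 9.77 and 5.02 FPKM in K1 siRNA and 6.48, 8.47 and 9.83 FPKM in K1 control libraries, against 6.40, 3.92 and 4.56 FPKM in TPC-1 siRNA and 5.60, 4.51 and 5.02 FPKM in TPC-1 control libraries. K1 and TPC-1 overlapped in the siRNA libraries and not in the control libraries. Its log2 fold changes of 0.66 (SE 0.21, edgeR adjusted p = 0.0122) and 0.61 (SE 0.21, edgeR adjusted p = 0.0189) passed the test, but with the share of long genes as a covariate they were 0.15 and 0.28 and no longer passed. COL27A1, which encodes a fibrillar collagen of cartilage, had 2.41 to 5.70 FPKM in K1 siRNA, 3.03 to 5.42 FPKM in K1 control, 2.31 to 4.83 FPKM in TPC-1 siRNA and 2.71 to 3.45 FPKM in TPC-1 control libraries, and was not called in either comparison. COL1A1 and COL24A1 were not called either, with log2 fold changes of 0.69 and 0.84 in siRNA and 0.38 and 0.26 in control libraries. COL11A2, a minor partner of type II fibrils, had 46 counts in the K1 siRNA libraries together and 12 in TPC-1 siRNA, and 32 in K1 control and 17 in TPC-1 control; its log2 fold change was 1.95 (edgeR adjusted p = 0.00236) in siRNA and 0.64 (edgeR adjusted p = 0.255) in control libraries. COL1A2 stood at 1.65 (edgeR adjusted p = 0.0606) in siRNA and 1.71 (edgeR adjusted p = 0.0484) in control libraries, on 0 to 19 counts per library; with the share of long genes as a covariate the second value was 1.79 and did not pass (edgeR adjusted p = 0.0701).

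Of the 8 network genes tested, 5 were higher in K1, 2 lower and 1 not called, in both comparisons. Of all tested genes, 35.9% were called higher and 32.4% lower in siRNA libraries, and 35.8% and 32.1% in control libraries. The genes of type IV stand in head-to-head pairs. COL4A1 and COL4A2, which encode the chains found in nearly all basement membranes, overlap by 1346 bases on chromosome 13 (chr13:110148963-110307157, minus strand, and chr13:110305812-110513209, plus strand); whether counting used strand is not given, so reads from the overlap cannot be assigned. COL4A1 had 11.9, 10.6 and 8.0 FPKM in K1 siRNA and 8.36, 10.4 and 10.5 FPKM in K1 control libraries, against 16.8, 11.95 and 12.1 FPKM in TPC-1 siRNA and 14.0, 10.3 and 11.9 FPKM in TPC-1 control libraries. The groups overlapped in the control libraries and not in the siRNA libraries. It was the only collagen gene with a mean of 5 FPKM that was lower in K1, by a log2 fold change of -0.52 (SE 0.15, edgeR adjusted p = 0.00669) in siRNA and -0.41 (SE 0.15, edgeR adjusted p = 0.0282) in control libraries. COL4A2 had 17.5, 17.8 and 9.90 FPKM in K1 siRNA and 12.3, 14.6 and 16.9 FPKM in K1 control libraries, against 10.5, 6.86 and 8.86 FPKM in TPC-1 siRNA and 9.45, 8.47 and 9.38 FPKM in TPC-1 control libraries. It was higher in K1, by 0.68 (SE 0.18, edgeR adjusted p = 0.00304) and 0.58 (SE 0.18, edgeR adjusted p = 0.00902), but by 0.25 and 0.30 with the share of long genes as a covariate, where it did not pass.

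COL4A3 and COL4A4 encode chains of a type IV form best known from kidney glomeruli and lung. They stand head to head on chromosome 2 with 170 bases between the annotated genes. COL4A4 had 0.06, 0.05 and 0.02 FPKM in K1 siRNA and 0.05, 0.05 and 0.06 FPKM in K1 control libraries, against 0.56, 0.38 and 0.44 FPKM in TPC-1 siRNA and 0.43, 0.36 and 0.41 FPKM in TPC-1 control libraries. It was the collagen gene with the most negative difference, at -3.47 (SE 0.29, edgeR adjusted p = 2.91e-08) and -3.06 (SE 0.28, edgeR adjusted p = 9.28e-08). COL4A3 had 3 to 20 counts per library and was not called, at 0.04 (SE 0.55) and 1.01 (SE 0.59); an antisense gene overlaps it. COL4A5 and COL4A6, head to head on chromosome X with 340 bases between them, encode chains that pair in basement membranes of skin and smooth muscle. COL4A5 ran from 3.06 to 5.55 FPKM in K1 siRNA and 3.12 to 5.34 FPKM in K1 control libraries, and from 2.05 to 4.12 FPKM in TPC-1 siRNA and 1.97 to 2.78 FPKM in TPC-1 control libraries. Its difference was 0.60 (SE 0.24, edgeR adjusted p = 0.0385) and 0.83 (SE 0.25, edgeR adjusted p = 0.00741), and it did not pass with the share of long genes as a covariate (0.27 and 0.61). COL4A6 was lower in level but further apart, with 0.24 to 0.43 FPKM in K1 siRNA and 0.23 to 0.29 FPKM in K1 control libraries against 0.00 to 0.04 FPKM in TPC-1 siRNA and 0.03 to 0.06 FPKM in TPC-1 control libraries. Its difference was 3.54 (SE 0.53, edgeR adjusted p = 2.24e-05) and 2.66 (SE 0.51, edgeR adjusted p = 2.49e-04).

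The stretches before COL4A3 and COL4A5 are shown because each of these pairs shares a short intergenic region. Both are from RefSeq (GRCh38.p14, plus strand; chr2:227164454-227164564, the part outside exons of GENCODE 29, and chrX:108439588-108439837). Capitals mark GGGCGG in the first and CCAAT or its reverse complement in the second.
COL4A3: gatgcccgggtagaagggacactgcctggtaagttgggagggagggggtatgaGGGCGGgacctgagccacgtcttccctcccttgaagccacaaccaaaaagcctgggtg
COL4A5: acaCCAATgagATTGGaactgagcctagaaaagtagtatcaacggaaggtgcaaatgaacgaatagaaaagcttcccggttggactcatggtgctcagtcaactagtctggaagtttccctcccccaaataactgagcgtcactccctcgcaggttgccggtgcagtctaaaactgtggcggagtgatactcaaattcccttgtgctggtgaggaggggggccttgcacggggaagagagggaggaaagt
The first holds 1 GC box and the second holds 2 CCAAT boxes, neither holds TATAAA, and no factor binding was measured.

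The type VIII chains form short networks in endothelium and cornea. COL8A1 had 0.92 to 1.17 FPKM in K1 siRNA and 0.90 to 1.04 FPKM in K1 control libraries against 0.59 to 0.77 FPKM in TPC-1 siRNA and 0.68 to 0.75 FPKM in TPC-1 control libraries, without overlap. The difference was 0.51 (SE 0.15, edgeR adjusted p = 0.00697) and 0.37 (SE 0.15, edgeR adjusted p = 0.0369). With the share of long genes as a covariate it was 0.38 and 0.29 and no longer passed. COL8A2 had 60 counts in the K1 siRNA libraries together against 28 in TPC-1 siRNA, and 92 in K1 control against 3 in TPC-1 control. The count ratio, scaled by library size, was 27 (95% Poisson interval 8.95 to 133) in control libraries; the fitted difference was 1.10 (SE 0.45, edgeR adjusted p = 0.0418) in siRNA libraries. COL10A1, the collagen of hypertrophic cartilage, had 17 counts over all libraries.

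The ratio between chains of 1 type, taken per length within each library, separated the lines in all 12 libraries for each of the 4 pairs examined. COL4A1 over COL4A2 lay below 1 in K1 (0.594 to 0.808 in siRNA, 0.622 to 0.711 in control libraries) and above 1 in TPC-1 (1.37 to 1.74 in siRNA, 1.22 to 1.48 in control libraries). COL5A2 over COL5A1 lay between 1.68 and 2.65 in K1 siRNA and 1.79 and 2.04 in K1 control, and between 0.0989 and 0.181 in TPC-1 siRNA and 0.122 and 0.176 in TPC-1 control libraries. COL6A3 over COL6A2 lay between 0.270 and 0.417 in the 6 K1 libraries and between 0.00771 and 0.0140 in the 6 TPC-1 libraries. COL6A1 over COL6A2 was close between the lines, at 0.653 to 0.839 in K1 and 0.489 to 0.614 in TPC-1. These ratios are a description and were not tested. Their place relative to 1 depends on the exonic sizes used for FPKM (14662 bases for COL4A1 and 19271 bases for COL4A2). Only the difference between the lines can be read from them, and it does not tell which chain differs. Reads from the overlap of COL4A1 and COL4A2 cannot be assigned.

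**Figure D4:**
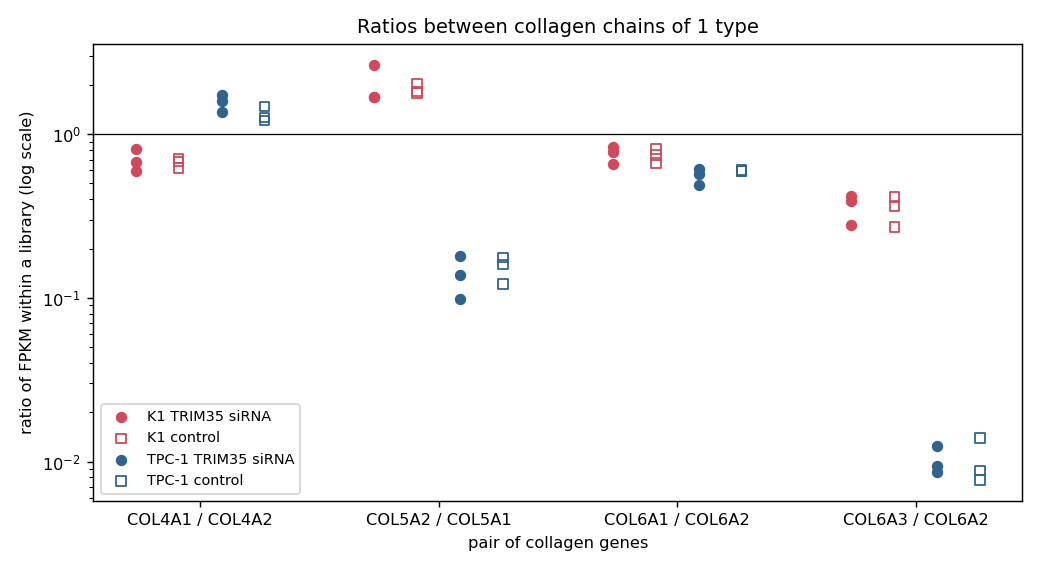
Ratio of FPKM between 2 collagen genes within each library (log axis), for K1 (red) and TPC-1 (blue), TRIM35 siRNA (filled circles) and control (open squares). The COL4A1 / COL4A2 ratio is lower in every K1 than in every TPC-1 library, and COL6A3 / COL6A2 is lowest in TPC-1. The place of a ratio relative to 1 depends on the exonic sizes used for FPKM.

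Type VII collagen anchors the epithelial basement membrane to the stroma and is encoded by COL7A1 alone. It had 15.8, 15.9 and 7.96 FPKM in K1 siRNA and 9.92, 13.9 and 16.4 FPKM in K1 control libraries, against 4.97, 2.46 and 2.44 FPKM in TPC-1 siRNA and 3.72, 3.23 and 2.92 FPKM in TPC-1 control libraries. Every K1 library was above every TPC-1 library, and the difference was 1.91 (SE 0.26, edgeR adjusted p = 1.10e-05) in siRNA and 1.92 (SE 0.26, edgeR adjusted p = 1.04e-05) in control libraries. Its promoter is shown as that of the single gene of its type. The 250 bases before the RefSeq start (GRCh38.p14, chr3:48595330-48595579, minus strand) hold 3 matches to GGGCGG and 1 to TATAAA, in capitals on either strand. The match to TATAAA is on the reverse strand, and matches of letters are not evidence of function.
COL7A1: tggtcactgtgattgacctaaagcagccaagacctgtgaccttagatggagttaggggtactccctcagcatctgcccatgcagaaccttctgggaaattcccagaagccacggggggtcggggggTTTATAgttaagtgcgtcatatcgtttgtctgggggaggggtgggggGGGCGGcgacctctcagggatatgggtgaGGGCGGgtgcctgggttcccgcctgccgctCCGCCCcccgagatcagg

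FACIT collagens sit on the surface of fibrils or at basement membranes. COL16A1, which encodes a FACIT near basement membranes and integrins, had 20.3, 19.8 and 11.6 FPKM in K1 siRNA and 14.3, 18.3 and 20.6 FPKM in K1 control libraries, against 3.28, 2.01 and 1.82 FPKM in TPC-1 siRNA and 2.61, 2.56 and 2.11 FPKM in TPC-1 control libraries. The lines did not overlap, and the difference was 2.76 (SE 0.22) in both comparisons (edgeR adjusted p = 1.75e-08 in siRNA and 1.74e-08 in control libraries). COL12A1, a collagen of tendon and ligament that binds fibrils, had 2.59 to 4.39 FPKM in K1 siRNA and 2.35 to 4.06 FPKM in K1 control against 1.18 to 1.84 FPKM in TPC-1 siRNA and 1.30 to 2.03 FPKM in TPC-1 control libraries; the difference was 1.08 (SE 0.21) and 0.81 (SE 0.21). The type IX chains, partners of type II fibrils in cartilage, went in opposite directions at low counts. COL9A3 had 58 counts in K1 siRNA against 3 in TPC-1 siRNA libraries, a scaled ratio of 21.1 (95% Poisson interval 6.87 to 105), and 66 in K1 control against 3 in TPC-1 control libraries, a ratio of 19.4 (6.34 to 96.2). TCFL5 overlaps COL9A3 on the opposite strand by 155 bases, with 414 to 699 counts per library. Reads from that overlap cannot be told apart without strand. COL9A2 was lower in K1, by -1.60 (SE 0.34, edgeR adjusted p = 5.54e-04) and -1.25 (SE 0.34, edgeR adjusted p = 0.00429), at 0.14 to 0.31 FPKM in K1 siRNA and 0.16 to 0.28 FPKM in K1 control against 0.49 to 0.79 FPKM in TPC-1 siRNA and 0.39 to 0.54 FPKM in TPC-1 control libraries. COL9A1 had 0 counts in all 12 libraries; a count of 0 leaves room for up to 3 counts in a library, for counting error only.

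Transmembrane and multiplexin collagens were low in both lines. Of the 5 tested, 3 were lower and 2 higher in K1 in both comparisons. Of all tested genes, 32.4% were called lower and 35.9% higher in siRNA libraries, and 32.1% and 35.8% in control libraries. COL17A1, a component of hemidesmosomes in skin, had 0.43 to 0.44 FPKM in K1 siRNA and 0.39 to 0.48 FPKM in K1 control libraries against 1.36 to 1.80 FPKM in TPC-1 siRNA and 1.33 to 1.80 FPKM in TPC-1 control libraries. The lines did not overlap, and the difference was -1.95 (SE 0.19, edgeR adjusted p = 2.21e-07) and -1.90 (SE 0.19, edgeR adjusted p = 2.66e-07). COL13A1, found at cell contacts and the neuromuscular junction, was lower in K1 by -0.93 (SE 0.29) and -0.95 (SE 0.28). COL25A1, known from neurons and amyloid plaques, was higher in K1, with 198 counts in K1 siRNA against 2 in TPC-1 siRNA libraries (scaled ratio 108, 95% Poisson interval 29.5 to 899) and 206 in K1 control against 9 in TPC-1 control libraries (log2 fold change 4.19, SE 0.48). COL15A1, a multiplexin of basement membranes, was higher in K1 by 1.63 (SE 0.35) and 1.60 (SE 0.36), at 0.21 to 0.40 FPKM over the K1 and 0.06 to 0.13 FPKM over the TPC-1 libraries. COL18A1, whose product carries the endostatin fragment, was lower: 0.54, 0.47 and 0.48 FPKM in K1 siRNA and 0.42, 0.36 and 0.47 FPKM in K1 control libraries, against 2.83, 1.65 and 1.93 FPKM in TPC-1 siRNA and 2.46, 1.91 and 2.01 FPKM in TPC-1 control libraries. Its difference was -2.19 (SE 0.19, edgeR adjusted p = 6.81e-08) and -2.45 (SE 0.20, edgeR adjusted p = 2.08e-08). SLC19A1 overlaps COL18A1 on the opposite strand by 20149 bases with 51 to 196 counts per library, and reads from the overlap cannot be told apart without strand.

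The stretch before the upstream start of COL18A1 is shown because this gene was the most abundant of those called lower in K1 by a log2 fold change below -2. It comes from RefSeq (GRCh38.p14, chr21:45404915-45405136, plus strand, the part outside exons of GENCODE 29); capitals mark GGGCGG on either strand, 9 times, with overlaps.
COL18A1: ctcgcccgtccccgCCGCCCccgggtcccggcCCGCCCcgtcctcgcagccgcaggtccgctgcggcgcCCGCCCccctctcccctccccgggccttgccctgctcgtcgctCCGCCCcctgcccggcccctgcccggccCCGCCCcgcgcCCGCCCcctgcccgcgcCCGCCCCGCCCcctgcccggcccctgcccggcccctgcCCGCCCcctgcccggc

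The calls for 15 genes held in both line comparisons under every alternative in which the gene was tested: COL4A4, COL4A6, COL5A2, COL6A1, COL6A2, COL6A3, COL7A1, COL9A2, COL9A3, COL12A1, COL15A1, COL16A1, COL17A1, COL18A1 and COL25A1. COL11A2 kept its call in the siRNA libraries under all 20 alternatives, and COL4A2 lost its calls only with the share of long genes as a covariate. For the other called genes, leaving out 1 library could end a call. In the control libraries, COL5A1 lost its call without TPC-1 control library 2 or 3 or K1 control library 2 or 3 (log2 0.53, 0.60, 0.59 and 0.49). COL4A1 lost it without TPC-1 control library 1 or 3 or K1 control library 1 or 2 (-0.29, -0.42, -0.33 and -0.45). COL8A1 lost it without TPC-1 control library 1 or 2, K1 control library 2 or 3, or K1 siRNA library 2 (0.34 to 0.38). COL13A1 lost it without TPC-1 control library 1 (-0.73), and COL1A2 without any of 10 of the 12 libraries (1.15 to 1.89), all but TPC-1 control library 1 and K1 siRNA library 3. Without TPC-1 control library 1, which held 9 of the 10 counts of COL1A2 in that group, the fitted value was 4.19. COL4A3 was called without K1 control library 1 (1.39).

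In the siRNA libraries, COL5A1 lost its call without TPC-1 siRNA library 2, without K1 siRNA library 1 and without K1 siRNA library 2 (0.52, 0.50 and 0.55), and COL13A1 without TPC-1 siRNA library 1 (-0.71). COL4A5 lost it without TPC-1 siRNA library 2 or 3, TPC-1 control library 3, K1 siRNA library 1 or 2, or K1 control library 2 (0.41 to 0.59). COL8A2 lost it without any 1 of 8 libraries (0.79 to 1.19): TPC-1 siRNA library 2 or 3, any K1 siRNA library, TPC-1 control library 1, or K1 control library 2 or 3. COL27A1 was called without TPC-1 siRNA library 1 (0.82) and also without K1 siRNA library 3 (0.70), and COL1A2 without TPC-1 control library 1 or 2 or K1 siRNA library 3 (1.63, 1.64 and 1.89). COL24A1 was called without K1 siRNA library 3 (1.05) and with RLE in place of TMM scaling (0.89), COL1A1 without TPC-1 siRNA library 1 (1.15). COL4A1 was not called by limma on FPKM in either comparison, and COL4A5 was not called by it in the siRNA libraries. With log2(FPKM + 0.1), limma did not call COL5A1 in the control libraries (0.69). With the compared groups alone, COL4A5 lost its call in the siRNA libraries (0.63) and COL27A1 was called in the control libraries (0.45). Without a filter on low counts, COL8A1 lost its call in the control libraries (0.39) and COL8A2 in the siRNA libraries (1.09). That setting also called COL27A1 in both comparisons (0.43 in each) and COL1A2 in the siRNA libraries (1.65). No collagen gene changed sign and passed the test under any alternative.

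Among genes that make, trim and bind collagen, some were higher and some lower in K1. In a list of matrix proteases, all 7 calls were higher. Over all tested genes, 35.9% were called higher and 32.4% lower in siRNA libraries, and 35.8% and 32.1% in control libraries. Of 22 genes for collagen synthesis and folding, all tested, 10 were higher in K1, 8 lower and 4 not called in siRNA libraries, and 11, 8 and 3 in control libraries. PLOD3, a lysyl hydroxylase and glycosyltransferase, was higher (1.69 and 1.53), as were P3H4, a partner of lysyl hydroxylase in the endoplasmic reticulum (1.44 and 1.37), and P4HA2, a prolyl 4-hydroxylase subunit (1.09 and 1.31). P3H2, a prolyl 3-hydroxylase acting on type IV collagen, was lower, with 13.4 to 14.3 FPKM in K1 siRNA and 13.9 to 14.2 FPKM in K1 control libraries against 38.9 to 46.6 FPKM in TPC-1 siRNA and 38.9 to 43.95 FPKM in TPC-1 control libraries (-1.73 and -1.69, SE 0.12 in both). Among 13 tested of 16 genes for trimming and crosslinking, 4 were higher and 5 lower in each comparison. The counts of these 2 lists lie near the shares over all genes and say nothing particular about the lists. The propeptidase ADAMTS2 was higher in K1 (5.27 and 5.73) and its relative ADAMTS3 lower (-3.41 and -3.42). The crosslinking enzyme LOX was higher, at 33.2 to 36.5 FPKM over the K1 and 1.27 to 2.36 FPKM over the TPC-1 libraries (4.23 and 4.26), and its relative LOXL4 lower (-5.49 and -5.52).

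Of 10 tested of 12 collagen receptor genes, 5 were higher and 2 lower in K1 in both comparisons, beside 35.9% and 32.4% of all tested genes in siRNA libraries. ITGA1, the alpha chain of an integrin that binds type IV collagen, was higher (2.02 and 1.83), and so was CSPG4, a proteoglycan that binds type VI collagen (4.29 and 3.61). The endocytic receptor MRC2 (-2.34 and -2.37) and OSCAR (-3.28 and -3.12) were lower. Of 8 tested of 18 fibril-associated proteoglycans and glycoproteins, 6 were higher and 2 lower in both, beside the same shares over all genes. FN1, fibronectin, lay between 2489 and 3774 FPKM in K1 siRNA and 2575 and 3461 FPKM in K1 control libraries, against 99.5 to 164 FPKM in TPC-1 siRNA and 119 to 163 FPKM in TPC-1 control libraries (4.46 and 4.32). TNC, tenascin C, was higher in K1 (3.24 and 3.06). THBS1 was lower in K1 (-7.26 and -7.57), and THBS2, its relative, had 2.24 to 4.25 FPKM in K1 siRNA and 2.36 to 3.83 FPKM in K1 control libraries against at most 0.02 FPKM in TPC-1. Of 8 tested of 10 matrix proteases, 7 were higher and 0 lower in both comparisons, again beside 35.9% and 32.4% of all tested genes in siRNA libraries. The list is not limited to collagenases and gelatinases, as it also holds the stromelysins MMP3 and MMP10. The collagenase genes MMP8 and MMP13 had at most 0.09 FPKM in any library. MMP1, interstitial collagenase, had 829.6 to 940 FPKM in K1 siRNA and 865 to 945 FPKM in K1 control libraries against 0.83 to 1.24 FPKM in TPC-1 siRNA and 0.91 to 1.16 FPKM in TPC-1 control libraries. MMP3 (10.21 and 9.43) and CTSK (2.81 and 2.74) were higher too, and FAP had 2.1 to 3.29 FPKM over the K1 and at most 0.01 FPKM over the TPC-1 libraries. In these 5 lists, each value pair is the log2 fold change in siRNA and then in control libraries. Each named gene was called in both, apart from MMP8 and MMP13, which were not tested.

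TRIM35 siRNA was not followed by a called change of any collagen gene. In edgeR's quasi-likelihood test, 0 of the 28 tested collagen genes were called in K1 and 0 in TPC-1, where 0% of all 17447 tested genes were called in either line. At an unadjusted p under 0.05 the collagen genes numbered 1 in K1 (136 of all genes, 0.780%) and 2 in TPC-1 (337 of all genes, 1.93%). DESeq2 called 0 collagen genes in either line, and 0 genes in K1 and 2 in TPC-1 of all tested. The difference between the effects (K1 minus TPC-1) gave 0 calls, with 2 collagen genes and 301 of all genes (1.73%) at an unadjusted p under 0.05; DESeq2 called 2 genes there, none of them a collagen gene. The median log2 fold change of the 28 was 0.04 in K1 and -0.00 in TPC-1. For genes with a mean of at least 1 FPKM the fits were narrow: the log2 fold changes of 13 such genes in K1 ran from -0.05 (COL16A1) to 0.21 (COL12A1), those of 12 in TPC-1 from -0.06 (COL4A2) to 0.28 (COL4A5). The 95% interval of each of these 25 values lay within 2-fold in either direction. The narrowest was that of COL6A2, from -0.26 to 0.25 on the log2 scale in K1 and from -0.15 to 0.37 in TPC-1. TRIM35 mRNA itself did not pass the test.

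The collagen genes nearest to a call were low in counts. COL8A2 had 14, 8 and 6 counts in TPC-1 siRNA libraries against 1, 0 and 2 in TPC-1 control libraries, with every siRNA value above every control value. Its scaled count ratio was 8.29 (95% Poisson interval 2.56 to 42.6), and the fitted log2 fold change of 2.94 (SE 0.72) had an edgeR adjusted p of 1, and of 0.494 to 1 over the alternatives. In K1 the same gene had 16, 25 and 19 counts in siRNA libraries against 41, 29 and 22 in control libraries, all siRNA levels per length below all control levels, with a log2 fold change of -0.47 (SE 0.40). COL25A1 had 0, 2 and 0 counts in TPC-1 siRNA libraries against 1, 4 and 4 in TPC-1 control libraries, a scaled ratio of control over siRNA of 5.07 (95% Poisson interval 1.05 to 48.2). The 2 counts of the siRNA group came from 1 library. COL9A2 followed in TPC-1, at 0.49 to 0.79 FPKM in siRNA against 0.39 to 0.54 FPKM in control libraries, with overlap and a log2 fold change of 0.42 (SE 0.31). In K1 the smallest p belonged to COL24A1, with 33, 32 and 17 counts in siRNA libraries against 13, 20 and 16 in control libraries, a log2 fold change of 0.86 (SE 0.37) and an edgeR adjusted p of 1. COL11A2 (0.66, SE 0.43) and COL18A1 (0.26, SE 0.21) followed in K1. The groups did not overlap for COL8A2 and COL11A2 in K1 and for COL8A2 and COL4A3 in TPC-1, 2 of 28 in each line, where 5.25% of all tested genes in K1 and 5.23% in TPC-1 did not overlap. For the difference of the effects, the smallest p belonged to COL8A2, COL25A1 (2.21, SE 1.01) and COL11A2 (1.32, SE 0.70). None of the 5 lists of collagen-related genes had a called member in these comparisons by edgeR.

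**Figure D5:**
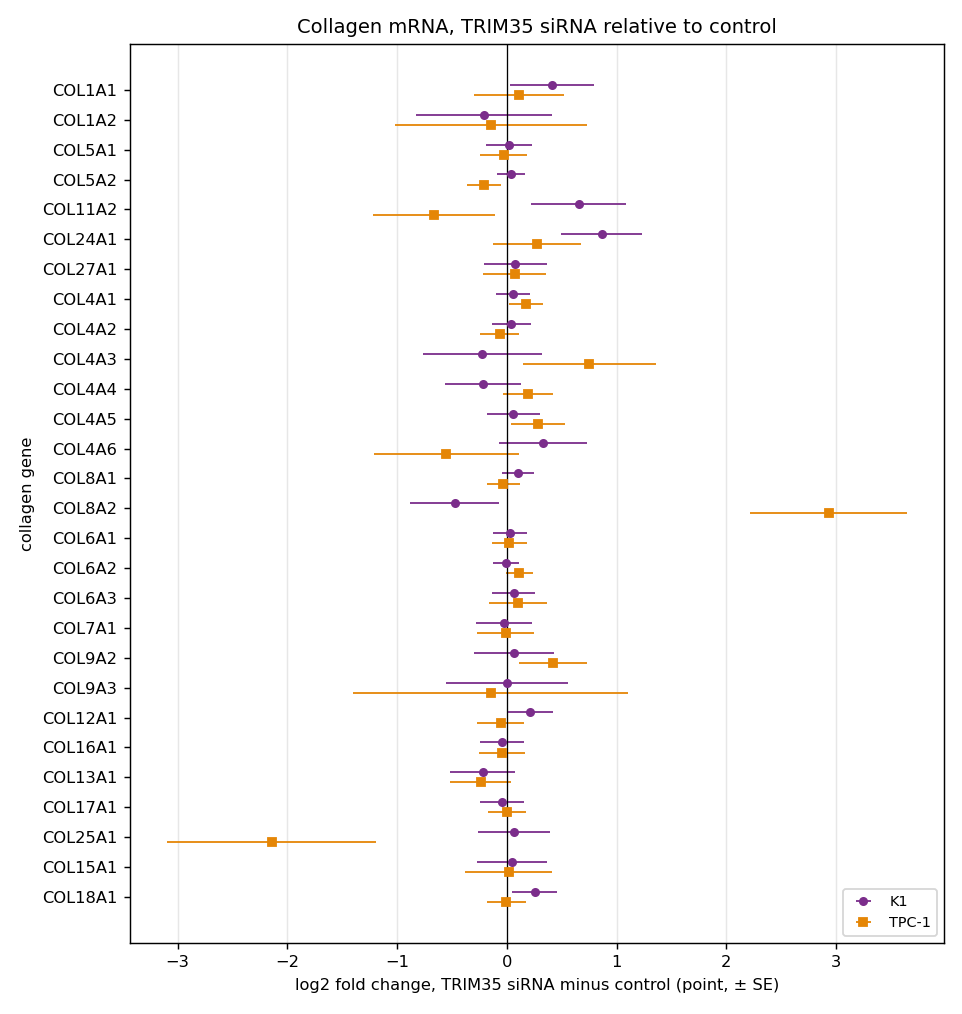
Log2 fold change, TRIM35 siRNA minus control, of the 28 tested collagen genes in K1 (circles) and TPC-1 (squares), with SE bars, grouped by structural type. Most points lie near 0; COL8A2 and COL25A1 in TPC-1 lie far from it with wide bars, at 28 against 3 and 2 against 9 counts.

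The 16 collagen genes removed by the count filter had 0 to 86 counts over all 12 libraries and no level above 0.10 FPKM. They were the fibrillar genes COL2A1, COL3A1, COL5A3 and COL11A1, the network gene COL10A1, the type VI genes COL6A5 and COL6A6, the FACIT genes COL9A1, COL14A1, COL19A1, COL20A1, COL21A1 and COL22A1, the transmembrane gene COL23A1, and COL26A1 and COL28A1. COL14A1 was the most counted of them. Several had counts in K1 only or nearly so. COL28A1 had 16 counts in K1 siRNA and 9 in K1 control libraries and 0 in TPC-1. These K1 counts were 5.82 and 2.64 times a floor of 3 counts in the TPC-1 group, scaled by library size. The K1 counts enter these ratios as observed, without an interval, so the ratios are not lower bounds. K1 siRNA library 3 also had 0 counts of COL28A1. COL5A3 had 14 counts in K1 siRNA against 1 in TPC-1 siRNA libraries (scaled ratio 15.3, 95% Poisson interval 2.33 to 646) and 15 in K1 control against 1 in TPC-1 control libraries (13.2, 2.03 to 556). COL11A1 had 1 count in TPC-1 siRNA against 13 in TPC-1 control libraries, a control over siRNA ratio of 14.6 (2.20 to 622), and COL22A1 had 2 counts in K1 siRNA against 13 in K1 control libraries, a ratio of 5.90 (1.34 to 53.9). These genes were picked out after their counts were seen. Intervals cover counting error only, and the floor covers that of the 0 counts alone. COL9A1, COL6A5, COL26A1 and COL21A1 each had fewer than 10 counts in all.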

How the data were processed

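Total RNA of 12 libraries (K1 and TPC-1, TRIM35 or control siRNA, 3 each) was converted to cDNA with random primers after TRIzol extraction, per the labels' protocols. The submitters' processing notes name cutadapt 1.9.1 and the build hg38. The sources used here do not name an aligner, a counter, an annotation release or a strand setting. Raw counts and FPKM per gene are as deposited by the authors; the FPKM equal the count divided by exonic size and summed counts, to rounding. One TPC-1 control library has a title naming another line; its other labels and its column give TPC-1, and it was kept there.

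The test was edgeR 4.0.16 (R 4.3.3) on the counts: filterByExpr left 17447 of 61806 genes (those removed held 0.0838% to 0.200% of a library's counts), TMM scaling, and a quasi-likelihood fit with 1 mean per group over all 12 libraries. Calls used a threshold of 0.05 on p-values adjusted by Benjamini-Hochberg over all tested genes. Alternatives used limma 3.58.1, DESeq2 1.42.0, other filters, fewer libraries and covariates. Fits were tested on simulated data. Replicate pairs differed beyond sampling noise. Same-numbered TPC-1 libraries deviated together (r = 0.756, 0.384 and 0.848 over genes) and same-numbered K1 libraries did not (-0.806, 0.0985 and -0.829). K1 siRNA library 1 deviated together with K1 control library 3 (0.803), and K1 siRNA library 3 with K1 control library 1 (0.837).

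The members, gene lists, tests and structural types were chosen with earlier results of these data known. Values in every library are given for members with a mean of 5 FPKM in some group, and the 3 members with the smallest p in each siRNA comparison are named; of each list, the 4 tested members with the smallest adjusted p between control libraries are named. COL4A4, COL6A5, COL17A1, COL18A1 and other members under 5 FPKM were described after their values were seen. Promoter sequences are from RefSeq windows, trimmed to bases outside GENCODE 29 exons.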

Additional observations from a re-analysis of the deposited data

Results flagged for a closer look

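COL8A2 stood out because its siRNA effects ran in opposite directions in the lines, with no overlap between siRNA and control libraries in either. The effect in K1 minus that in TPC-1 was -3.41 on the log2 scale (SE 0.83, edgeR adjusted p = 1.00), so the difference did not pass the test; over the alternatives it ran from -4.29 to -2.89 and the adjusted p from 0.583 to 1. TPC-1 control libraries held 3 counts of COL8A2 in all.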

How the results depend on the processing

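Over all alternatives, 1707 of 1800 values for single genes kept their direction and their side of the threshold, 68 no longer passed, 19 passed in addition and 6 changed sign. All 438 values of the 20 named collagen-related genes kept both. The sign changes were uncalled throughout: COL4A3 between lines in siRNA libraries was -1.27 with the share of long genes as a covariate and ran from -0.27 to 0.47 on leaving out 1 library (below 0 without TPC-1 siRNA library 2 or 3 or K1 siRNA library 1 or 2), and COL27A1 was -0.15 with that covariate. Limma on log2(FPKM + 0.1) called 10 collagen genes higher and 2 lower in K1 in either comparison, and on log2(FPKM + 1) it called 10 higher in siRNA, 11 higher in control libraries, and 2 lower in both; only 15 of the 28 entered those fits. Without a filter on low counts, 43 collagen genes entered, and between 21 and 22 were called higher. Leaving out 1 library gave 14 to 20 higher and 5 to 6 lower in siRNA, and 14 to 18 higher and 4 to 6 lower in control libraries. With a replicate block, COL8A1 lost its call in control libraries (0.37, edgeR adjusted p = 0.0530) and COL8A2 in siRNA libraries (1.15, edgeR adjusted p = 0.0506), and no other collagen call changed; replicate numbers do not pair libraries of different lines. Blocking on the replicate number within each line left 0 collagen genes called after TRIM35 siRNA. In K1, same-numbered libraries did not deviate together, so this block cannot remove what the K1 libraries share. Every other alternative also left 0 collagen genes; without the filter, 2 of 38290 genes were called in K1, 2 in TPC-1 and 4 for the difference of the effects. The fit on the compared groups alone was not run for the difference of the effects, which uses all groups. At 16705044 to 22928861 counts per library, genes with a handful of counts allow no more than wide ratios.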
